A study of Homo sapiens with 9 samples.

Results

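Phospholamban, encoded by PLN, and 8 genes for the pumps and channels that move calcium into and out of the endoplasmic reticulum (ER) were followed in the esophageal cancer cell line TYUC-1 during exposure to EPZ-6438. The 9 genes are PLN, the pump genes ATP2A2 and ATP2A3, the release channel genes ITPR1, ITPR2 and ITPR3, and the store-operated entry genes STIM1, STIM2 and ORAI1. They were taken by symbol from the 35762 gene symbols of the estimated count table, and all 9 were in it. The set was selected on earlier results of these data. PLN was chosen by its large fall in CPM between the days and the other 8 for their place in the same system, so the values of PLN are given as a description with no test.

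TYUC-1 is labelled as a line from a neuroendocrine carcinoma of the esophagus, grown in suspension in DMEM/F12 medium with serum. EPZ-6438 (tazemetostat) is a small molecule that blocks EZH2, the enzyme that methylates histone H3 for Polycomb repressive complex 2. Polyadenylated RNA was sequenced on day 0, day 3 and day 6, with 3 biological replicates a day, and every library carries EPZ-6438 as its treatment. The protocol names EPZ-6438 at 2 uM or DMSO, and it does not say whether the day 0 cells had received DMSO. No vehicle library of day 3 or day 6 was analysed here, so the inhibitor and the time in culture cannot be told apart in any comparison. All libraries come from this cell line, so p-values measure the spread between its cultures. The 3 comparisons share libraries and their values are set side by side, not as separate evidence.

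The ER stores calcium at a far higher concentration than the cytosol. SERCA pumps load the store, and phospholamban is a small membrane protein that binds the pump and lowers its affinity for calcium until it is phosphorylated by protein kinase A or the calmodulin-dependent kinase CaMKII. Phospholamban is best known from heart muscle, where it sets the speed of relaxation between beats. IP3 receptors release the store after phospholipase C makes the messenger IP3. When the store runs low, STIM proteins in the ER membrane sense it and open ORAI channels in the plasma membrane.

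PLN lies on chromosome 6 from 118548298 to 118560730 on the plus strand (GRCh38, GENCODE 29), inside CEP85L, which runs on the minus strand from 118460772 to 118710075. The coding sequence shows how small the gene product is. It takes 159 bases at chr6:118558922-118559080, all in 1 of the 2 exons, encodes 52 residues and makes up 7.95% of the 2001-base transcript. The capitals mark the start and stop codons.

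PLN coding sequence: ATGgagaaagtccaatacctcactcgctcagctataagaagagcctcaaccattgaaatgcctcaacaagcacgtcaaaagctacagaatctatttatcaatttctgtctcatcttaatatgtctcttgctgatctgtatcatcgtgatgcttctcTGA

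The 250 bases upstream of a listed RefSeq start site are shown for PLN and for the pump gene ATP2A2. These windows differ in their number of CG. Capitals mark each CG, the only motif searched, which reads the same on both strands. The windows are chr6:118548046-118548295 and chr12:110280366-110280615, both on the plus strand of GRCh38.p14.

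PLN promoter: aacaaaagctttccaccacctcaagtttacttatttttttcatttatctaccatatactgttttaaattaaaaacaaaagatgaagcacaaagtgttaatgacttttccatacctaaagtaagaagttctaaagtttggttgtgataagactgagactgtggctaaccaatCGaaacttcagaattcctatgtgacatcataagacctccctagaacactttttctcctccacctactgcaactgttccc

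ATP2A2 promoter: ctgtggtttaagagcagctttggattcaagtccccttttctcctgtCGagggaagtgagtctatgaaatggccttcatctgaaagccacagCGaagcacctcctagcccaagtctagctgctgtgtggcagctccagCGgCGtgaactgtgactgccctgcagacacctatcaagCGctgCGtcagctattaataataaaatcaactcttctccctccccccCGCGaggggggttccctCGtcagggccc

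The PLN window held 1 CG and was 34.8% G or C, and 14.7% of the 35116 RefSeq promoter windows of this length had as few CG or fewer. The ATP2A2 window shown held 9 CG (47.8% of windows had as few or fewer), and that of its other listed start held 43 (99.2%). The median window held 11 CG. Windows of ITPR1, ITPR3 and STIM2 held 17, 26 and 38 CG, and those of the 4 listed starts of STIM1 held 5 to 35. Some windows lay in annotated untranslated exon sequence. This covered all 250 bases for ITPR3, 150 for STIM2 and 131 for the ATP2A2 window with 43 CG. The windows shown for PLN and ATP2A2 held 0 such bases. Entries were found for 6 of the 9 genes, not for ATP2A3, ITPR2 and ORAI1. No methylation or histone measurement was analysed here, so these counts are a description of the sequence.

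The libraries held 21638874 to 31235055 estimated counts. Levels are in CPM, a count taken as a rate of its library's size after TMM scaling, and 3 counts corresponded to 0.098 to 0.141 CPM. A call means an adjusted p under 0.05 in the edgeR quasi-likelihood fit over all 15345 genes that passed a filter on low counts, and all 9 genes passed it. The SE printed with a log2 fold change is its absolute value divided by the square root of the F statistic of this fit. Libraries are written as day and replicate. Library D0_2 stood apart, with a mean correlation of 0.976 with the other day 0 libraries, against 0.986 for D0_1 and D0_3 and 0.992 to 0.997 for the libraries of day 3 and day 6. In each of the 9 genes D0_2 was the highest or the lowest day 0 library, so values against day 0 that move by more than 1.5 times without it are given both ways. EZH2 transcript went from 193 ± 3.95 CPM on day 0 to 150.3 ± 8.46 on day 6 (SD, n = 3), which is no measure of enzyme inhibition.

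Calls were common in these data. The fit called 40.6% of all tested genes on day 3 against day 0 (22.5% higher, 18.1% lower), 54.6% on day 6 against day 0 (28.9% higher, 25.7% lower) and 16.3% on day 6 against day 3 (11.5% higher, 4.76% lower). Scaling by library size alone turned the share of calls that were higher from 55.3% to 69.2%, from 53% to 66.6% and from 70.7% to 78.1%. It moved the median log2 fold change of all genes on day 6 against day 0 by 0.115. Among the 8 genes other than PLN, 5 were called on day 3 against day 0 (3 higher, 2 lower), 5 on day 6 against day 0 (2 higher, 3 lower) and 3 on day 6 against day 3 (1 higher, 2 lower). These 62.5%, 62.5% and 37.5% stand beside the shares of all genes, and with 8 genes the shares are coarse. The libraries of the days compared did not overlap for 5, 5 and 6 of these 8 genes, beside 53.8% of all tested genes (28.8% higher, 25% lower), 58.7% (31.2% higher, 27.5% lower) and 43.5% (22.8% higher, 20.7% lower). The median log2 fold changes of the 8 were 0.247, -0.0283 and -0.25, beside 0.0146, 0.0132 and -0.00125 for all genes.

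PLN was lower on day 3 and lower again on day 6. Its level was 21.1, 27.0 and 17.3 CPM in the day 0 libraries, 8.69, 9.57 and 10.1 on day 3 and 3.77, 3.79 and 3.62 on day 6. The 3 days did not overlap, and the day 0 libraries spread widest. The means were 21.8 ± 4.89, 9.46 ± 0.729 and 3.73 ± 0.0945 CPM (SD, n = 3), which left 0.434 of the day 0 level on day 3 and 0.171 on day 6 in the fit. The log2 fold changes were -1.20 (SE 0.14) on day 3 against day 0, -2.55 (SE 0.16) on day 6 against day 0 and -1.34 (SE 0.16) on day 6 against day 3. Without D0_2 the values against day 0 were -1.03 and -2.38. The PLN counts behind these levels ran from 646 in D0_1 to 84 in D6_3. In RNA from a whole culture, fewer cells with a transcript and less transcript per cell cannot be told apart.

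Among the 11041 genes averaging 5 CPM or more, PLN had the most negative log2 fold change on day 6 against day 0, ranked 7 from the most negative on day 3 against day 0 and ranked 9 on day 6 against day 3. Over all 15345 tested genes, which include many with few counts, its ranks were 9, 75 and 51 in the same order. These ranks describe the gene that was picked and are no test.

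CEP85L, the gene around PLN on the other strand, shares no exon base with it. CEP85L was at 12.6 ± 2.26, 9.77 ± 0.779 and 11.0 ± 1.29 CPM on the 3 days and was not called (adjusted p = 0.052, 0.256 and 0.469 by edgeR in the comparisons of day 3 with day 0, of day 6 with day 0 and of day 6 with day 3). Its day 3 value was called in 6 of 18 alternative analyses, with adjusted p from 0.0318 to 0.151 over all 18. Without D0_2 the values of CEP85L against day 0 were -0.21 and -0.05, in place of -0.36 and -0.19. Whether reads were counted by strand is not stated.

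**Figure D1:**
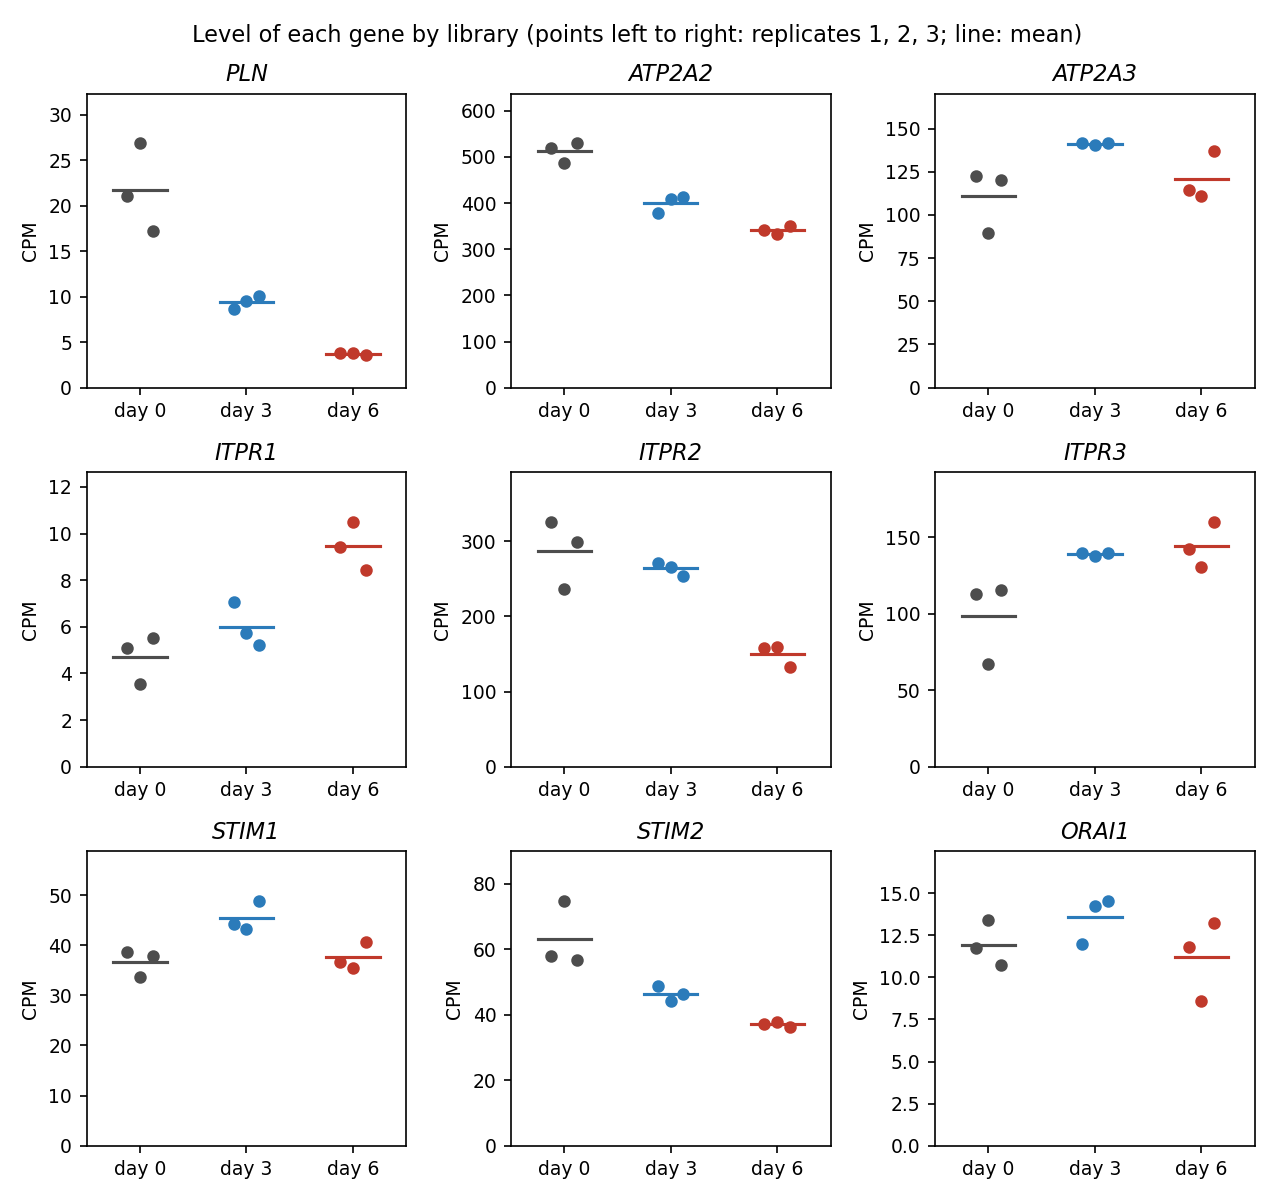
Level of each of the 9 genes in CPM (y axis, from 0) by day of exposure (x axis). Points are the 3 libraries of a day, replicates 1 to 3 from left to right, and lines are means. PLN sits at 17.3 to 27.0 CPM on day 0 and at 3.62 to 3.79 on day 6.

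The main pump gene fell and the ratio of PLN to it was lower still. ATP2A2 (chromosome 12, 110280756 to 110351093, plus strand) encodes SERCA2, the pump of heart muscle and of most other tissues. It was at 519, 487 and 531 CPM on day 0, 379, 409.8 and 412 on day 3 and 343, 332 and 350.1 on day 6. The day 3 and day 6 libraries were all below day 0, and day 6 was also below day 3. ATP2A2 fell on day 3 against day 0 (log2 fold change -0.36, SE 0.07, adjusted p = 0.00236 by edgeR) and on day 6 against day 0 (-0.58, SE 0.07, adjusted p = 3.45e-05). The step from day 3 to day 6 was not called (-0.23, SE 0.07, adjusted p = 0.0504). That step was called by DESeq2 (adjusted p = 0.00851), by limma-voom (0.0435), in a fit of only these days (0.00896) and without D0_2 (0.0041).

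ATP2A3 (chromosome 17, 3923870 to 3964464, minus strand) encodes SERCA3, a pump of lower calcium affinity found in blood and epithelial cells. Its level was 123, 89.4 and 120.3 CPM on day 0, 142, 140.2 and 142 on day 3 and 114, 111 and 137 on day 6. All 3 libraries of day 3 lay above both other days, while day 0 and day 6 overlapped. ATP2A3 rose on day 3 against day 0 (log2 fold change 0.35, SE 0.12, adjusted p = 0.0333 by edgeR). It was not called on day 6 against day 0 (0.12, SE 0.12, adjusted p = 0.406) or on day 6 against day 3 (-0.23, SE 0.12, adjusted p = 0.236). Without D0_2 the day 6 against day 0 value was -0.019. The day 3 rise was 0.21 without D0_2 (adjusted p = 0.0419), and its call was lost without any 1 of the day 3 libraries (0.0796 to 0.0896) and without D6_1 (0.0513). The day 6 against day 3 value was called in a fit of only these days (0.0336) and without D0_2 (0.0246).

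ATP2A1, the SERCA1 gene of fast skeletal muscle, was at 2.62 ± 0.247, 4.12 ± 0.319 and 3.55 ± 0.585 CPM. It rose on day 3 against day 0 (log2 fold change 0.64, SE 0.16, adjusted p = 0.00878 by edgeR). Its day 6 rise (0.43, SE 0.17, adjusted p = 0.0442) was no longer called in 13 of 17 alternatives, with adjusted p up to 0.183 without D6_3.

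For levels between genes, CPM was divided by the length of the longest coding transcript in kilobases (kb). On this scale ATP2A2 stood at 115, 89.9 and 76.7 CPM per kb on the 3 days and ATP2A3 at 23.0, 29.3 and 25. PLN stood at 10.9, 4.73 and 1.86 CPM per kb. For every 100 of ATP2A2 there were 9.05, 12.3 and 7.23 of PLN on day 0, 5.11, 5.2 and 5.47 on day 3 and 2.45, 2.54 and 2.30 on day 6. The days did not overlap in this ratio, and the means were 9.53 ± 2.58, 5.26 ± 0.191 and 2.43 ± 0.122 (SD, n = 3). Without D0_2 the day 0 mean was 8.14. With the merged exon length of each gene in place of one transcript, the ratio was 29.4, 16.2 and 7.50, so its size depends on the length used while its order over the days does not. The ratio rests on PLN and carries no test.

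**Figure D2:**
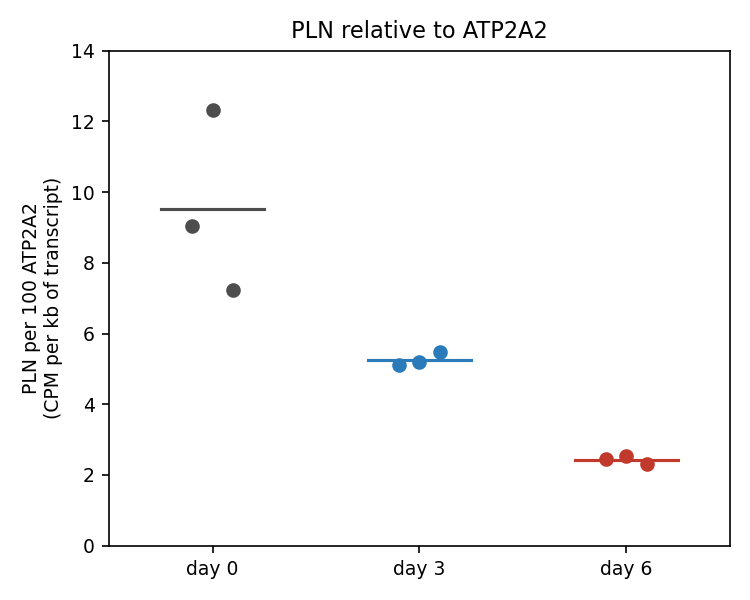
PLN level per 100 of ATP2A2, both in CPM per kb of the longest coding transcript (y axis, from 0), by day (x axis). Points are libraries and lines are means, at 9.53, 5.26 and 2.43 for day 0, day 3 and day 6.

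The SERCA family as a whole was made up of 83.0% ATP2A2 on day 0, 74.7% on day 3 and 74.7% on day 6, in CPM per kb. ATP2A3 took 16.5%, 24.4% and 24.3%, and ATP2A1 stayed under 1.1% in every library. The day 0 libraries did not overlap those of day 3 or day 6 in the ATP2A2 share, and day 3 and day 6 overlapped. With merged exon lengths the ATP2A2 share was 69.3%, 57.6% and 57.7%.

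Other small membrane proteins that bind SERCA were near the counting floor or not called. SLN, the sarcolipin gene of muscle, had 1, 2 and 2 counts in all on day 0, day 3 and day 6. MRLN (myoregulin) had 12, 8 and 18, STRIT1 (the activator DWORF) had 18, 9 and 23, and SMIM6 had none in any library. C4orf3, which encodes another-regulin, was at 86.5 ± 18.7, 72.8 ± 2.08 and 91.7 ± 8.0 CPM and was not called (adjusted p = 0.148, 0.605 and 0.111 by edgeR). Leaving out a day 0 library changed this for C4orf3, with a call on day 3 without D0_1 (adjusted p = 0.0189) and on day 6 without D0_2 (0.0179). The day 6 against day 3 value of C4orf3 was called without D0_1 (0.0448), without D0_2 (0.00475) and in a fit of only these days (0.00208).

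Of 14 tested genes of the wider list of SERCA regulators, PLN left out, 1 rose and 5 fell on day 3 and 2 rose and 4 fell on day 6 against day 0 (42.9% and 42.9% called, beside 40.6% and 54.6% of all tested genes). PPP1R1A, whose product inhibits the phosphatase that acts on phospholamban, rose from 0.437 ± 0.068 to 3.65 ± 0.302 CPM by day 6 (log2 fold change 3.04, SE 0.21, adjusted p = 3.63e-07 by edgeR), from 33 to 276 pooled counts. Of the catalytic subunit genes of this phosphatase, PPP1CC fell from 350 ± 64.1 to 265 ± 8.63 CPM (-0.40, SE 0.11, adjusted p = 0.00787 by edgeR). PPP1CB (-0.26, adjusted p = 0.0897) and PPP1CA (0.11, adjusted p = 0.282) were not called on day 6. On day 3 PPP1CC (-0.36, adjusted p = 0.022) and PPP1CB (-0.37, adjusted p = 0.0302) were called lower and PPP1CA was not called. D0_2 was the highest day 0 library of each of these. CAMK2D, a CaMKII gene, fell from 191 ± 7.33 to 119 ± 5.77 CPM (-0.68, SE 0.07, adjusted p = 7.98e-06). PRKACB, a catalytic subunit gene of protein kinase A, fell from 77.7 ± 11.8 to 41.5 ± 2.24 CPM (-0.91, SE 0.10, adjusted p = 1.55e-05). The other tested genes of these kinases in the list were not called lower. CAMK2B rose from 24.8 ± 3.16 to 37.0 ± 1.74 CPM by day 6 (0.57, SE 0.10, adjusted p = 0.000433 by edgeR). CAMK2G (0.02, adjusted p = 0.821) and PRKACA (-0.02, adjusted p = 0.854) were not called. CAMK2A, with 12, 5 and 4 pooled counts on day 0, day 3 and day 6, was not tested. The day 3 fall of PRKACB was close to the threshold (-0.27, SE 0.10, adjusted p = 0.0484) and was no longer called in 12 of 18 alternatives, and it was -0.15 without D0_2 (adjusted p = 0.0716).

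**Figure D3:**
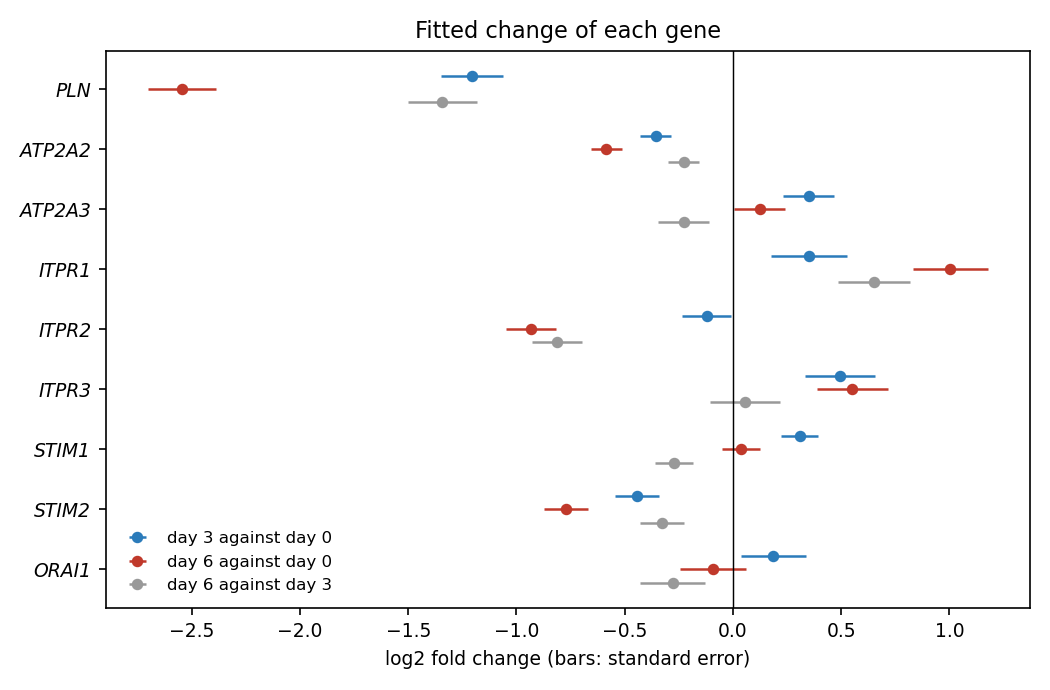
Fitted log2 fold change of each of the 9 genes (x axis), with bars for the SE derived from the F statistic. The 3 colours are the comparisons of day 3 with day 0, of day 6 with day 0 and of day 6 with day 3. On day 6 against day 0, PLN is at -2.55, ITPR2 at -0.93 and ITPR1 at 1.00.

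The 3 IP3 receptor genes went different ways. ITPR2 (chromosome 12, 26336515 to 26833198, minus strand), the receptor of highest IP3 affinity, was at 326, 236 and 299 CPM on day 0, 272, 266 and 254 on day 3 and 158, 159.7 and 133 on day 6. Day 0 and day 3 overlapped, and all day 6 libraries lay below both. ITPR2 fell on day 6 against day 0 (log2 fold change -0.93, SE 0.12, adjusted p = 3.49e-05 by edgeR) and on day 6 against day 3 (-0.81, SE 0.12, adjusted p = 0.000433), and both calls held in all 18 alternatives. On day 3 against day 0 it was not called (-0.12, SE 0.11, adjusted p = 0.421), but without D0_2 it was (-0.25, adjusted p = 0.013). Among the genes averaging 5 CPM or more it ranked 75 from the most negative on day 6 against day 0.

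ITPR3 (chromosome 6, 33620365 to 33696574, plus strand), a receptor of epithelial and secretory cells, was at 113, 67.3 and 115 CPM on day 0, 139, 138 and 139 on day 3 and 142, 130.5 and 160.2 on day 6. Every day 3 and day 6 library lay above day 0, and day 3 and day 6 overlapped. ITPR3 rose on day 3 against day 0 (log2 fold change 0.49, SE 0.16, adjusted p = 0.0302 by edgeR) and on day 6 against day 0 (0.55, SE 0.16, adjusted p = 0.0131). The lowest day 0 value was that of D0_2, and without it the rises were 0.28 (adjusted p = 0.00832) and 0.33 (adjusted p = 0.00178). The day 3 call was lost without any 1 of the day 3 libraries (0.0695 to 0.0765) and in a fit of only these days (0.0665), and the day 6 call without D6_3 (0.0674). ITPR3 shares 1025 exon bases with UQCC2 on the other strand, which was at 25.2, 28.1 and 27.0 CPM, and without strand their reads cannot be told apart there.

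ITPR1 (chromosome 3, 4493345 to 4847840, plus strand), the main IP3 receptor of neurons, was at a low 5.10, 3.53 and 5.50 CPM on day 0, 7.08, 5.72 and 5.22 on day 3 and 9.42, 10.5 and 8.44 on day 6. Day 6 lay above both other days, which overlapped. ITPR1 rose on day 6 against day 0 (log2 fold change 1.00, SE 0.17, adjusted p = 0.00041 by edgeR) and on day 6 against day 3 (0.65, SE 0.17, adjusted p = 0.0192), and it was not called on day 3 against day 0 (0.35, SE 0.18, adjusted p = 0.13, and 0.18 without D0_2). The day 6 against day 3 call was lost without D3_2 (0.0854), D3_3 (0.0869), D6_1 (0.0559) or D6_2 (0.0902).

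By CPM per kb, ITPR2 made up 71.0% ± 3.05 of the IP3 receptor transcripts on day 0, 61.2% ± 0.77 on day 3 and 45.9% ± 4.68 on day 6 (SD, n = 3). ITPR3 went from 27.7% ± 2.98 to 37.2% ± 0.928 and 50.9% ± 5.03, and the days did not overlap in either share. ITPR1 took 1.29%, 1.56% and 3.23%. The family sum was 35.6 ± 6.79, 37.8 ± 0.883 and 28.7 ± 0.463 CPM per kb, and day 6 lay below day 3 but overlapped day 0. Without D0_2 the day 0 shares of ITPR2 and ITPR3 were 69.4% and 29.3%.

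**Figure D4:**
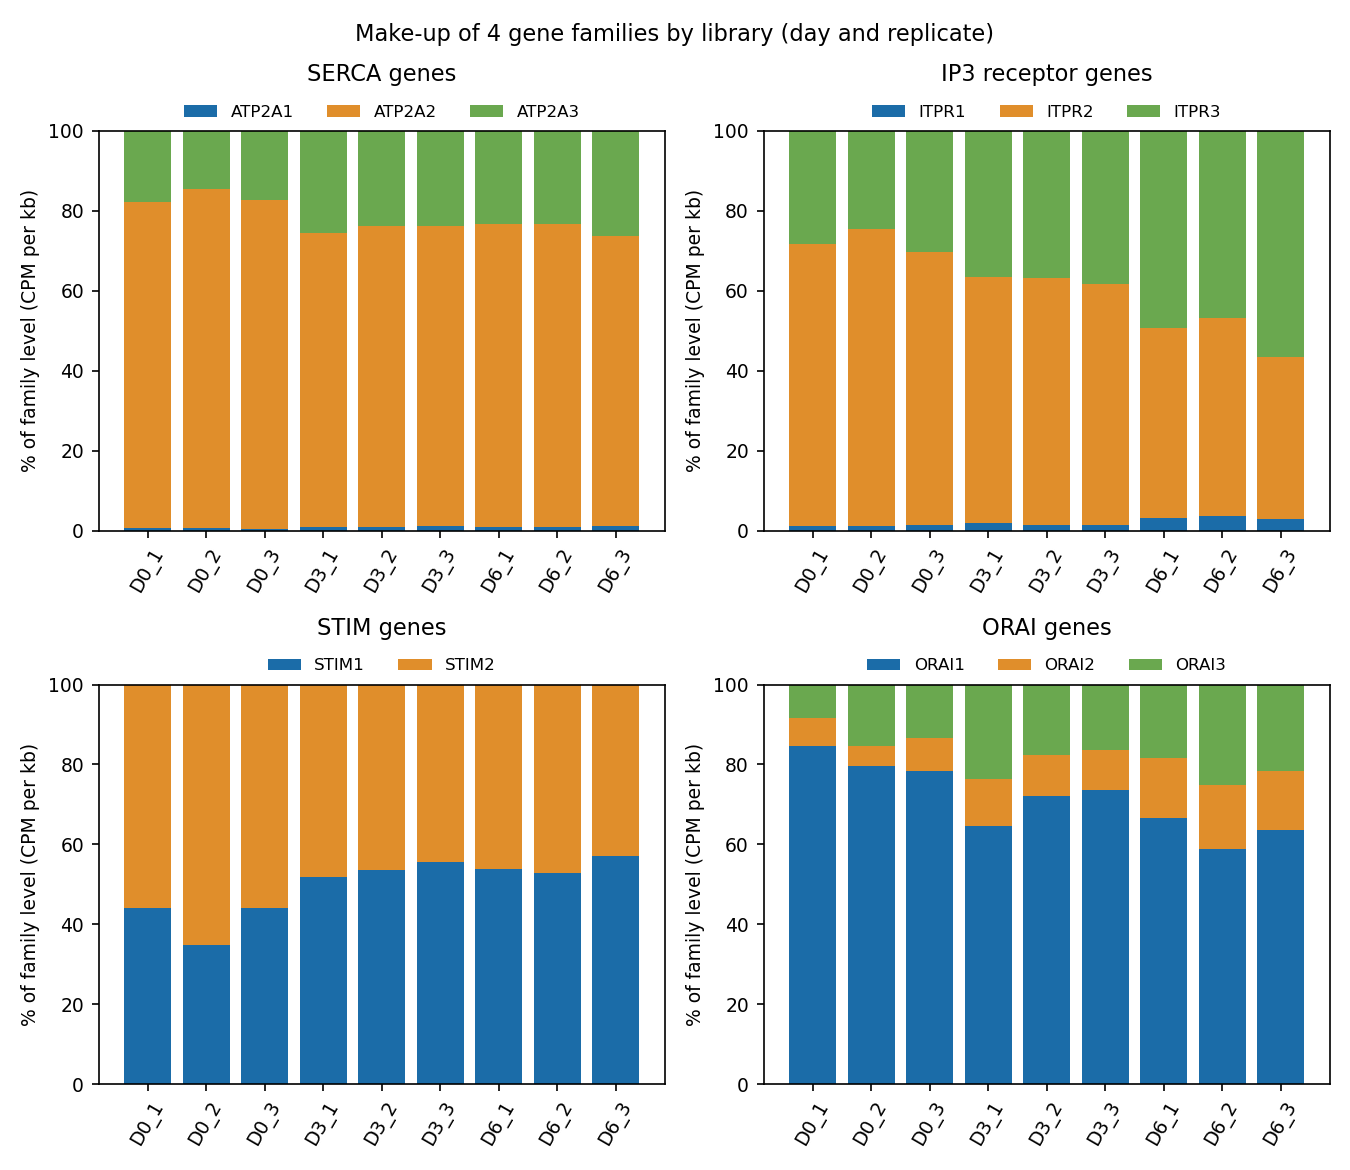
Share of each gene in the summed level of its family, in percent of CPM per kb (y axis), for each library (x axis, day and replicate). In the IP3 receptor panel ITPR2 goes from 71.0% on day 0 to 45.9% on day 6, and in the ORAI panel ORAI1 goes from 80.9% to 63.0%.

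Of 14 tested partners of IP3 receptors, 7 rose and 3 fell on day 3 and 7 rose and 4 fell on day 6 against day 0 (71.4% and 78.6% called, beside 40.6% and 54.6% of all tested genes). ITPRIPL2, of the family of IP3 receptor interacting proteins, rose from 0.243 ± 0.0804 to 10.1 ± 0.979 CPM on day 6, from 18 to 765 pooled counts, a ratio of 42.1 (95% counting interval 26.4 to 71.4). CABP1, a neuronal calcium sensor that binds the receptors, rose from 13.5 ± 0.970 to 39.5 ± 4.25 CPM (log2 fold change 1.55, SE 0.10, adjusted p = 1.15e-07 by edgeR). The scaffold gene HOMER2 rose from 0.892 ± 0.0759 to 5.18 ± 0.0514 CPM (2.52, SE 0.18, adjusted p = 3.09e-07). Of 18 tested genes of phospholipase C and IP3 metabolism, 7 rose and none fell on day 3, and 11 rose and 1 fell on day 6 (38.9% and 66.7% called, beside 40.6% and 54.6% of all tested genes). PLCL2, a phospholipase C-like protein without catalytic activity, went from 1.49 to 6.13 CPM (log2 fold change 2.04), PLCH1 from 6.52 to 14.8 (1.18) and PLCD3 from 3.31 to 6.93 (1.06).

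Of 13 tested genes of ryanodine receptors and other ER channels, 3 rose and 2 fell on day 3 and 3 rose and 4 fell on day 6 against day 0 (38.5% and 53.8% called, beside 40.6% and 54.6% of all tested genes). RYR1, the release channel of skeletal muscle, had 5, 67 and 141 pooled counts on the 3 days, a ratio of 27.9 (95% counting interval 11.7 to 87.3) for day 6 to day 0. Its mean of 1.88 CPM on day 6 was still low. By CPM per kb, RYR2 made up most of the ryanodine receptor transcripts on each day, at 88.23%, 79.65% and 58.56% in the means. RYR1 took 1.55%, 13.2% and 33.3%. The family sum was 0.3085 ± 0.0604, 0.427 ± 0.0301 and 0.3606 ± 0.0366 CPM per kb (SD, n = 3). In this sum day 3 lay above day 0, and day 6 overlapped day 0. JPH2, a junctophilin of heart muscle, had 1, 14 and 49 pooled counts, a ratio of 48.5 (8.31 to 1950), and its day 3 call was lost without D3_1 (adjusted p = 0.0512). JPH1, the junctophilin of skeletal muscle, fell from 37.1 ± 0.539 to 17.4 ± 1.04 CPM by day 6 (log2 fold change -1.09, SE 0.08, adjusted p = 3.23e-07 by edgeR).

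The sensors of store depletion differed from each other. STIM2 (chromosome 4, 26857678 to 27025381, plus strand), which responds to small losses of store calcium, was at 57.9, 74.9 and 56.8 CPM on day 0, 48.7, 44.2 and 46.4 on day 3 and 37.2, 37.7 and 36.3 on day 6. The 3 days did not overlap. STIM2 fell on day 3 against day 0 (log2 fold change -0.44, SE 0.10, adjusted p = 0.0047 by edgeR) and on day 6 against day 0 (-0.77, SE 0.10, adjusted p = 5.98e-05). The step from day 3 to day 6 (-0.33, SE 0.10, adjusted p = 0.0491) was at the threshold, and its call was lost with RLE size factors (0.0525), with limma-voom (0.0506), among genes averaging 5 CPM or more (0.0757), with the replicate number as a block (0.0573) and without any 1 library of day 3 or day 6 (0.09 to 0.158).

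STIM1 (chromosome 11, 3854527 to 4093210, plus strand), the main activator of ORAI1, was at 38.6, 33.6 and 37.9 CPM on day 0, 44.3, 43.2 and 48.9 on day 3 and 36.7, 35.5 and 40.7 on day 6. Day 3 lay above both other days, which overlapped. STIM1 rose on day 3 against day 0 (log2 fold change 0.31, SE 0.09, adjusted p = 0.0145 by edgeR), a call lost without D3_3 (0.0841). It was not called on day 6 against day 0 (0.04, SE 0.09, adjusted p = 0.75, and -0.033 without D0_2) or on day 6 against day 3 (-0.27, SE 0.09, adjusted p = 0.0521). The last of these was called by DESeq2 (0.0396), with the replicate number as a block (0.0333), in a fit of only these days (0.0109), without D0_2 (0.0079) and without D6_3 (0.0423).

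ORAI1 (chromosome 12, 121626550 to 121642677, plus strand) encodes the pore of the store-operated channel. It was at 11.7, 13.4 and 10.7 CPM on day 0, 12, 14.3 and 14.6 on day 3 and 11.8, 8.58 and 13.2 on day 6, and the days overlapped. It was not called in any comparison (log2 fold change 0.19, -0.09 and -0.28, each with SE 0.15; adjusted p = 0.347, 0.633 and 0.257 by edgeR). With library size alone as the scaling, its day 6 against day 0 value was 0.023, and without D0_2 it was -0.014.

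Of the other channel genes, ORAI2 rose, and ORAI3 was higher in every day 3 and day 6 library than in those of day 0. ORAI2 was at 7.02, 5.87 and 8.32 CPM on day 0, 15.8, 14.5 and 14.2 on day 3 and 19.1, 16.9 and 22.1 on day 6, with a log2 fold change of 1.46 on day 6 (SE 0.13, adjusted p = 3.58e-06 by edgeR). ORAI3, named here after its values were seen to complete the family, went from 2.74 to 5.49 and 5.62 CPM. Its day 0 libraries spread from 0.770 to 1.74 CPM per kb, with D0_2 highest, and those of day 3 and day 6 from 2.17 to 3.01. No fitted value is given for ORAI3. By CPM per kb, ORAI1 made up 80.9% ± 3.34, 70.1% ± 4.92 and 63.0% ± 3.88 of the ORAI transcripts, ORAI2 6.75%, 10.6% and 15.2%, and ORAI3 12.4%, 19.3% and 21.8%. STIM2 took 59.1% ± 5.43 of the STIM transcripts on day 0, 46.4% ± 1.84 on day 3 and 45.5% ± 2.25 on day 6, and all day 0 libraries lay above the others. Which STIM gene led depended on the length used, since merged exons gave STIM2 63.7%, 51.3% and 50.4%.

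Of 14 tested genes of store-operated entry other than STIM1, STIM2 and ORAI1, 6 rose and 2 fell on day 3 and 7 rose and 2 fell on day 6 against day 0 (57.1% and 64.3% called, beside 40.6% and 54.6% of all tested genes). SEPTIN4, of the septin family of filament proteins, rose from 0.799 ± 0.253 to 4.83 ± 0.486 CPM by day 6 (log2 fold change 2.60, SE 0.21, adjusted p = 1.1e-06 by edgeR). UBQLN1, a ubiquilin, fell from 330 ± 23.1 to 216 ± 6.36 CPM (-0.61, SE 0.07, adjusted p = 2.67e-05).

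Per length, ATP2A2 led the 9 genes on every day and ITPR1 was the lowest, at 0.462, 0.589 and 0.928 CPM per kb. On day 0 ITPR2 (25.2 ± 4.06) and ATP2A3 (23.0 ± 3.84) followed ATP2A2 and lay within their spread of each other. Below them STIM2 (12.3 ± 1.96), PLN (10.9 ± 2.44), ITPR3 (9.97 ± 2.73), STIM1 (8.42 ± 0.622) and ORAI1 (7.99 ± 0.904) each lay within the spread of its neighbours, and their order differed with merged exons. By day 6 the order below ATP2A2 was ATP2A3 (25 ± 2.93), then ITPR3 (14.6 ± 1.52) and ITPR2 (13.2 ± 1.30) within their spread, then STIM1 (8.64 ± 0.631), ORAI1 (7.49 ± 1.59) and STIM2 (7.19 ± 0.138), with ORAI1 within its spread of both neighbours. With merged exons the day 6 order of these last genes was STIM2 (5.36 ± 0.103), STIM1 (5.28 ± 0.385) and ORAI1 (4.95 ± 1.05), so it depends on the length used. PLN moved from rank 5 on day 0 to rank 8 on day 3 and day 6, and with merged exons from rank 4 to rank 8.

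In the wider calcium system, 153 further genes from 10 lists were in the table, 130 were tested and 2 had no count in any library. On day 3 against day 0, 42 rose and 31 fell (56.2% called), on day 6 against day 0 51 rose and 36 fell (66.9%), and on day 6 against day 3 25 rose and 10 fell (26.9%). Of all tested genes, 40.6%, 54.6% and 16.3% were called. With library size alone as the scaling the day 3 counts were 48 and 21. The medians of their log2 fold changes were 0.0633, 0.0677 and 0.018.

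The list of other calcium transport holds pumps of the plasma membrane and Golgi, sodium-calcium exchangers including the mitochondrial SLC8B1, and the membrane proteins TMBIM4 and TMBIM6. On day 6 against day 0, 6 of its 10 tested genes rose and 1 fell, beside 28.9% higher and 25.7% lower among all tested genes. ATP2B3, a plasma membrane calcium pump known from neurons, had 12, 156 and 773 pooled counts, from 0.16 to 10.2 CPM and a ratio of 63.8 on day 6 (95% counting interval 36.3 to 124). ATP2C2, a pump of the secretory pathway, had 1, 63 and 372 pooled counts, a ratio of 368 (65.7 to 14600). ATP2B4, a widely expressed plasma membrane pump, rose from 43.1 ± 4.98 to 69.0 ± 1.73 and 86.4 ± 4.62 CPM (log2 fold change 1.00 on day 6, SE 0.09, adjusted p = 2.33e-06 by edgeR).

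Of 15 tested calcium-binding proteins of the ER lumen and secretory pathway, 9 fell and 3 rose on day 6 against day 0, beside 25.7% lower and 28.9% higher among all tested genes. The lectin chaperone gene CANX fell from 524 ± 19.3 to 347.5 ± 18.4 CPM (log2 fold change -0.59, SE 0.07, adjusted p = 2.73e-05 by edgeR). HSPA5, the ER chaperone BiP, fell from 362 ± 20.4 to 247 ± 7.29 CPM (-0.55, SE 0.07, adjusted p = 5.19e-05). The reticulocalbin gene RCN3 rose from 8.18 ± 0.834 to 33.7 ± 4.30 CPM (2.05, SE 0.11, adjusted p = 4.85e-08).

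Of 12 tested genes of mitochondrial calcium uptake, 1 rose and 5 fell on day 3 and 2 rose and 4 fell on day 6 against day 0 (50% and 50% called, beside 40.6% and 54.6% of all tested genes). HSPA9, the mitochondrial chaperone that also links the ER to mitochondria, fell from 1378 ± 80.9 to 712 ± 42.0 CPM, and LETM1, a cation exchanger gene of the inner membrane, from 151 ± 17.9 to 84.8 ± 3.89. EFHD1, a calcium sensor of mitochondria, rose from 3.31 ± 0.783 to 14 ± 1.27 CPM. Of 19 tested cytosolic effectors, 8 rose and 4 fell on day 3 and 9 rose and 7 fell on day 6 (63.2% and 84.2% called, beside 40.6% and 54.6% of all tested genes). The kinase gene CAMK1D rose from 0.59 ± 0.208 to 21.8 ± 2.20 CPM, the calcineurin target NFATC4 from 0.437 ± 0.068 to 5.56 ± 0.739, and the calcineurin regulator RCAN2 from 0.89 ± 0.116 to 4.6 ± 0.204.

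**Figure D5:**
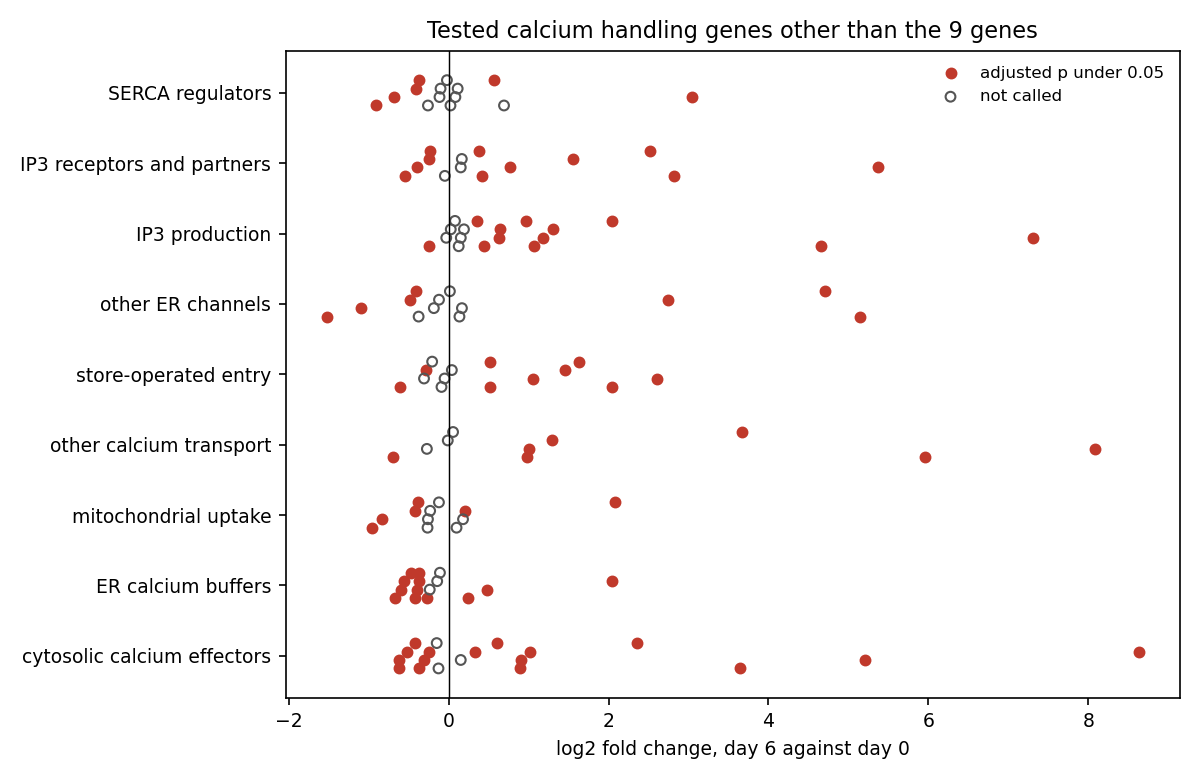
Log2 fold change on day 6 against day 0 (x axis) of the tested genes in 9 calcium handling lists other than the 9 genes described. Each point is a gene, filled where its adjusted p was under 0.05, and the small vertical offsets only keep points apart. Other calcium transport has 6 of 10 genes higher and ER calcium buffers have 9 of 15 lower.

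The genes whose course over the 9 libraries was closest to that of PLN were found by the root mean square difference of log2 CPM, each gene centred on its own mean, among genes averaging 5 CPM or more. Of 11040 genes ranked, CALML3, a calmodulin-like calcium-binding protein of epithelia, was closest (0.286, against a median of 1.00). It was at 10.4 ± 1.04, 6.98 ± 0.503 and 1.98 ± 0.13 CPM on the 3 days. Next came INSYN2A (0.328), an inhibitory synapse gene, at 12.4, 7.87 and 3.38 CPM, and the amino acid transporter gene SLC38A4 (0.330), at 10.8, 6.21 and 3.20. AL035425.2 (0.424) was at 38.5, 30.0 and 12.7 CPM, and ID3 (0.427), an inhibitor of basic helix-loop-helix factors, at 12.8, 8.80 and 4.5. Likeness over 3 days with shared libraries is a description. Genes further down the ranking also fell in steps, such as JPH1 at rank 23 (0.599).

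Markers of other cell types were measured beside these genes. The summed level of 18 heart and skeletal muscle markers was 12.5 to 14.2 CPM on day 0, 30.6 to 34 on day 3 and 68.3 to 77.2 on day 6. Of these 18, MYL7 and NPPA had no count in any library, and 7 of 11 tested rose on day 6 against day 0 with none lower. On day 3 against day 0, 6 rose and 1 fell, and on day 6 against day 3, 6 rose and 2 fell. Of all tested genes, 54.6%, 40.6% and 16.3% were called in these comparisons. RYR2 and CASQ2 of this list are also in the calcium lists. The slow troponin gene TNNT1 made up most of the sum on day 6, going from 1.67 to 13.0 and 43.1 CPM. The 10 smooth muscle markers summed to 26.8 to 36.4, 48.4 to 50.6 and 55.9 to 68.6 CPM, with MYOCD at 0 in all libraries. Markers of the labelled neuroendocrine tissue were uneven in level. CHGA (chromogranin A) had no count in any library, and SCG2 and SCG3 were at 0.383 and 0.204 CPM on day 0 and 0.18 and 0.303 on day 6. CHGB, SYP (synaptophysin), INSM1 and NEUROD1 were at 1.38, 5.85, 4.41 and 3.06 CPM on day 0 and at 1.88, 6.07, 5.32 and 2.75 on day 6, and were not called. NCAM1 rose from 6.26 to 20.1 CPM, and POU2F3, also known as a tuft cell factor, fell from 285 ± 7.11 to 227 ± 7.51 CPM by day 6. Markers of squamous epithelium (1.15 to 1.37 CPM on day 0, 9.48 to 10.2 on day 6), fibroblasts (55.4 to 60.1 and 73.7 to 80.8), leukocytes (3.95 to 5.32 and 4.98 to 6.68) and endothelium (0.658 to 0.849 and 1.58 to 2.24) were also summed. The part of any of these in the levels of the 9 genes was not tested.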

How the data were processed

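RNA was measured in 9 libraries of TYUC-1. Per the submitters' processing notes the tools were kallisto 0.44.0, bcl2fastq 2.19 and DESeq2, and the builds listed are GRCh38, GRCm38 and hg38, with no role stated. The authors deposited estimated counts for 35762 gene symbols, unscaled. How transcripts were summed to genes, and whether strand was used, is not given in the sources used here.

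The deposited estimated counts were rounded and fitted with edgeR 4.0.16 (R 4.3.3, limma 3.58.1): filterByExpr with a minimum count of 10 left 15345 genes, TMM scaling, all 9 libraries in 1 quasi-likelihood fit with a mean per day, Benjamini-Hochberg adjustment over all tested genes and a threshold of 0.05. Alternatives were RLE, library size only, DESeq2 1.42.0, limma-voom, no filter, genes averaging 5 CPM or more, only the 2 days compared, a replicate block, an adjusted p under 0.01 and each library left out. Ratios of pooled counts carry exact 95% Poisson intervals, which cover counting error only.

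The 9 genes and the lists were chosen with earlier results of these data known. Named besides the 9 genes are overlapping protein-coding genes, small SERCA-binding proteins and the 5 genes most like PLN. Up to 3 genes of each list with the lowest p among those called against day 0 are also named. Noncoding genes or pseudogenes with no entry in the count table share exon bases with ITPR1 (444, antisense), ITPR2 (126) and STIM1 (43 to 132 each). Their part in the counts of these genes was not tested. ORAI3, RYR2, CAMK2A, CAMK2B, CAMK2G, PRKACA, PPP1CA, PPP1CB and PPP1CC were added after their values were seen, as relatives or partners of named genes. They are not among the named genes counted under the alternatives. Loci and lengths are from GENCODE 29 (33545 symbols matched) and promoters from RefSeq on GRCh38.p14. Protein sequences were not used here. The summed level of the neuroendocrine marker list, and 1 of its genes, are not reported here.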

Additional observations from a re-analysis of the deposited data

How the results depend on the processing

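PLN was picked for its fall, so its values under refits of the same counts are a description and no test. It was lower in all 18 alternatives of each comparison. Its log2 fold changes were -1.34 to -1.03 (day 3 against day 0), -2.69 to -2.38 (day 6 against day 0) and -1.40 to -1.30 (day 6 against day 3). Of 432 values of the 8 genes other than PLN under alternatives, 384 kept their direction and their side of the threshold, 30 lost a call, 12 gained one and 6 changed sign. Of 1853 values of the other named genes, 1770 kept both, 51 lost a call, 26 gained one and 6 changed sign. Named genes averaging under 5 CPM had no value under that filter, and JPH2 had none for day 3 against day 0 in the fit of only these days. The setting of an adjusted p under 0.01 reuses the main fit, so no value could change sign or gain a call there. The other alternatives share most or all of their libraries with the main fit, so these counts describe stability and are no test.

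Every value that changed sign was close to 0 and had not been called. With each library left out in turn, day 6 against day 0 ranged from -0.019 (without D0_2) to 0.20 for ATP2A3, from -0.036 (without D6_3, and -0.033 without D0_2) to 0.074 for STIM1, from -0.24 to 0.063 (without D6_2) for ORAI1 and from -0.056 (without D0_1) to 0.25 for C4orf3. For day 6 against day 3 the ranges were -0.032 (without D6_3) to 0.12 for ITPR3, -0.052 (without D6_2, and -0.032 without D3_3) to 0.071 for PLCH1 and -0.049 to 0.0026 (without D3_2) for HSPA5. With library size only, ORAI1 gave 0.023 on day 6 against day 0 and HSPA5 0.014 on day 6 against day 3, and HSPA5 also gave 0.012 among genes averaging 5 CPM or more. The cause was not tested.

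At an adjusted p under 0.01, 3860 genes were called on day 3 against day 0 (6225 at 0.05) and 1444 on day 6 against day 3 (2497), and 2 and 1 of the 8 genes other than PLN. Keeping only genes averaging 5 CPM or more, which tests fewer genes, gave 1248 genes and 15 calcium genes (35) on day 6 against day 3, and 46 calcium genes (73) on day 3 against day 0. For day 6 against day 3, a fit of only these days called 4331 genes and 6 of the 8, and DESeq2 called 5 of the 8 (3). With each library left out in turn, 4653 to 7289, 7268 to 9496 and 1606 to 4681 genes were called in the 3 comparisons, the last lowest without D3_2 and highest without D0_2. The 8 genes gave 2 to 6, 4 to 5 and 1 to 6 calls, and calcium genes 56 to 78, 79 to 97 and 25 to 50. For day 3 against day 0 the 8 genes gave 3 calls without D3_1 or D3_2 and 2 without D3_3. For day 6 against day 3 they gave 6 without D0_2 and 1 without D3_2, D3_3, D6_1 or D6_2.

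The labels number the replicates 1 to 3 on each day. Deviations of the 9 same-numbered pairs from their day means correlated from -0.153 to 0.209, 4 of them over 0.1. Pairs of unlike number correlated from -0.262 to 0.244. The highest single correlation was with the own number in D0_1, D0_3 and D6_3. In 2 libraries the 2 highest were both with the own number, so the numbers were not taken as pairing. With the replicate block, 6113, 8305 and 2293 genes, 5, 5 and 3 of the 8 genes and 72, 86 and 36 calcium genes were called. Depth limits SLN, MRLN, STRIT1, RYR1, JPH2 and ATP2C2, which had few counts on day 0.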
